A study of Mus musculus with 9 samples.

Results

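Wild-type mouse osteoclasts on day 3 of culture were described on their own, from 3 of the 9 RNA sequencing libraries of a study of Acod1, the enzyme that makes itaconate. The 3 libraries, called replicates 1, 2 and 3 after their titles, were chosen by their labels and not by any measured value. Every gene was ranked by its mean level over these libraries in CPM, the reads counted on a gene per 1000000 counted reads of its library. Of 54532 gene IDs 22741 had at least 1 read in the group. Marrow flushed from the femur and tibia of wild-type mice was kept overnight with 5 ng/ml of the growth factor M-CSF. The cells that had not attached were then grown with RANKL at 10 ng/ml, the cytokine that drives osteoclast formation, and with M-CSF raised to 20 ng/ml. No 4-octyl-itaconate was added, and nothing was deleted in these mice per the labels. The other 6 libraries came from Acod1-deficient mice and entered no value below. The labels used here state neither strain, age and sex of the mice nor whether replicates came from separate mice. An SD here thus covers differences among 3 libraries that could in part be technical. By the sex-linked reads given below, the 3 libraries were not all from mice of 1 sex.

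Osteoclasts are the cells that resorb bone. They form when precursors of the monocyte and macrophage lineage, kept alive by M-CSF, receive RANKL through its receptor RANK and fuse into multinucleated cells. A mature osteoclast attaches to bone through integrins and a ring of actin-rich podosomes, acidifies the sealed space with a vacuolar proton pump and a chloride channel, and digests the exposed collagen with cathepsin K. Tartrate-resistant acid phosphatase (TRAP) is its classical enzyme stain, and the cell is known for its many mitochondria.

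The cells carried the markers that define osteoclasts. The genes Ctsk (cathepsin K), Mmp9 (matrix metalloproteinase 9, a gelatinase), Acp5 (TRAP) and Ckb (brain-type creatine kinase) ranked 2, 4, 5 and 10 of all genes by mean CPM. Ctsk (chr3:95499256-95509362, plus strand) stood at 8224, 8739 and 7852 CPM in replicates 1, 2 and 3. Mmp9 (chr2:164940780-164955850, plus strand) stood at 7071, 7193 and 7853 CPM. The lowest and the highest library differed 1.11-fold for both. Acp5 (chr9:22126727-22135711, minus strand) stood at 6092, 6428 and 7384 CPM, and Ckb (chr12:111669361-111672338, minus strand) at 4203, 4253 and 4806 CPM, with replicate 3 the highest for both. All 12 genes of the osteoclast marker list reached 99.7 CPM or more in the mean, 11 of them above 100 CPM, and together they took 3.00 ± 0.0881% of the counted reads (SD, n = 3). In a bulk measurement more cells of a type and more RNA per cell cannot be told apart, here and below.

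The promoters of a pair of leading markers are shown because they differ in base composition and in the presence of a TATAAA box. The windows run from 250 bases before to 50 bases after the gene's start in RefSeq (build GRCm38.p6), 5′ to 3′ on the gene's own strand, and capitals mark TATAAA where a letter search found it. The Ctsk window (chr3:95498960-95499259, plus strand) held 43.7% G and C, 2 CG dinucleotides and no TATAAA. The Ckb window (chr12:111672289-111672588, minus strand) held 63% G and C, 22 CG dinucleotides and a TATAAA that began 28 bases before the start.
Ctsk: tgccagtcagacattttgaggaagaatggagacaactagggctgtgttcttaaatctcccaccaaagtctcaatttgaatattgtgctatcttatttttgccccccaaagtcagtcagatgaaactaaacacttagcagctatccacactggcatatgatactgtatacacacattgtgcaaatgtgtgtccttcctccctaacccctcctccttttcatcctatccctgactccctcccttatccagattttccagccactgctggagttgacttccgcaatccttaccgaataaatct
Ckb: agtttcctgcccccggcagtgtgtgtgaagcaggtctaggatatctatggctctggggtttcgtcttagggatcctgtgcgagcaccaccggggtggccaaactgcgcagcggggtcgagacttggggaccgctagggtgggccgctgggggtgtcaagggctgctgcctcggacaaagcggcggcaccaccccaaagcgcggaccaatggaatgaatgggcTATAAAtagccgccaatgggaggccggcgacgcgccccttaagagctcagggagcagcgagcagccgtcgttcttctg
Of the 100 leading nuclear protein-coding genes 80 had an entry, with 106 windows in all. TATAAA on the gene's strand occurred in 12.3% of those windows, against 4.00% of the windows of protein-coding genes at 1 CPM or more and 8.32% of all 32851 windows. It was found in 13 leading genes and began 40 to 20 bases before the start in 5 of them, which were Vim, Ckb, Ppia, H2-D1 and Anxa1. CACGTG, a palindrome read the same on both strands, occurred in 14.2% of the leading windows, 10.1% of the expressed ones and 7.15% of all. CTCTTTCC on either strand occurred in 17.1% of 76 windows of cytosolic ribosomal protein genes and in 3.07% of the expressed ones. The 3 windows of Acp5 held none of the motifs searched, which also included TGANTCA and, on either strand, GAGGAAGT. Such matches describe letters only.

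The libraries held 25727540, 30057182 and 35143629 counted reads, so that 1 CPM stood for 25.7 to 35.1 reads. Replicates 1 and 2 were close and replicate 3 stood apart. The median absolute log2 ratio of genes at 10 CPM or more was 0.08 between replicates 1 and 2, 0.24 between 1 and 3 and 0.24 between 2 and 3. Replicate 3 was the highest or the lowest of the 3 for 90.3% of those 8684 genes. The same share was 56.6% for replicate 1 and 53.0% for replicate 2. The separation was shallow: 20 genes (0.23%) differed 2-fold or more between replicates 1 and 2, 18 (0.207%) between 1 and 3 and 11 (0.127%) between 2 and 3. The common biological coefficient of variation was 0.142 over 3 libraries and 0.0667 without replicate 3. How the genes higher and lower in replicate 3 differ in base composition and length is given near the end, and results that rest on that library carry its value. Statements that a gene was highest, lowest or steady in replicate 3 are by plain CPM unless said otherwise. Against genes of like GC content and exon length many such differences shrank. The ratio of replicate 3 to the mean of replicates 1 and 2 went from 1.26 to 1.06 for Psap and from 0.741 to 1.02 for Lpl. For others, such as B2m (0.989 to 1.18), it moved away from 1.

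A mean of at least 1 CPM was reached by 11959 genes, 11097 of them protein-coding, and 2065 genes reached 100 CPM. The reads were spread widely. The 100 leading genes took 22.9 ± 0.692% of the reads and the first 50% of the reads came from 652 genes, while 4954 genes made up 90%. Protein-coding genes took 98.9 ± 0.0741%. Among the 100 leading protein-coding genes 28 coded for cytosolic ribosomal proteins, 16 belonged to the lysosome, protease, inhibitor or acid secretion lists, 9 to the respiratory chain (7 of them encoded in the mitochondrion), 7 to the cytoskeleton and adhesion lists and 5 to glycolysis. Another 35 belonged to none of these lists. The leading genes were short, with a median merged exon length of 2697.5 bases against 4534 for all protein-coding genes at 1 CPM or more.

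The first gene by CPM was mt-Co1, a mitochondrially encoded subunit of cytochrome oxidase, at 10088, 12087 and 8415 CPM. Replicate 3 was the lowest and replicate 2 the highest. Eef1a1, the elongation factor that delivers tRNA to the ribosome, followed Ctsk with 8388, 8664 and 7355 CPM. Vim, which codes for the intermediate filament vimentin, stood at 6669.6, 6028 and 5897 CPM. Actb, cytoplasmic actin, stood at 6016, 5042 and 6216 CPM. The mitochondrial genes mt-Cytb and mt-Nd1, of respiratory complexes III and I, had means of 5976 ± 812 and 4768 ± 553 CPM. Lyz2, the lysozyme of myeloid cells, was at 3963, 3586 and 4763 CPM, and the ferritin light and heavy chains Ftl1 and Fth1 had means of 4003 ± 605 and 3664 ± 275 CPM. Eef2, Gapdh, Pkm, Rplp0, Psap, Atp5b and Atp6v1b2 completed the first 20, between 2825 and 3341 CPM in the mean. The genes ranked 21 to 30 lay between 2230 and 2729 CPM, with Tmsb4x, Rpsa, mt-Nd2, Hspa8, Lpl, Cfl1, mt-Nd5, Aldoa, Rps2 and Eno1.

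**Figure D1:**
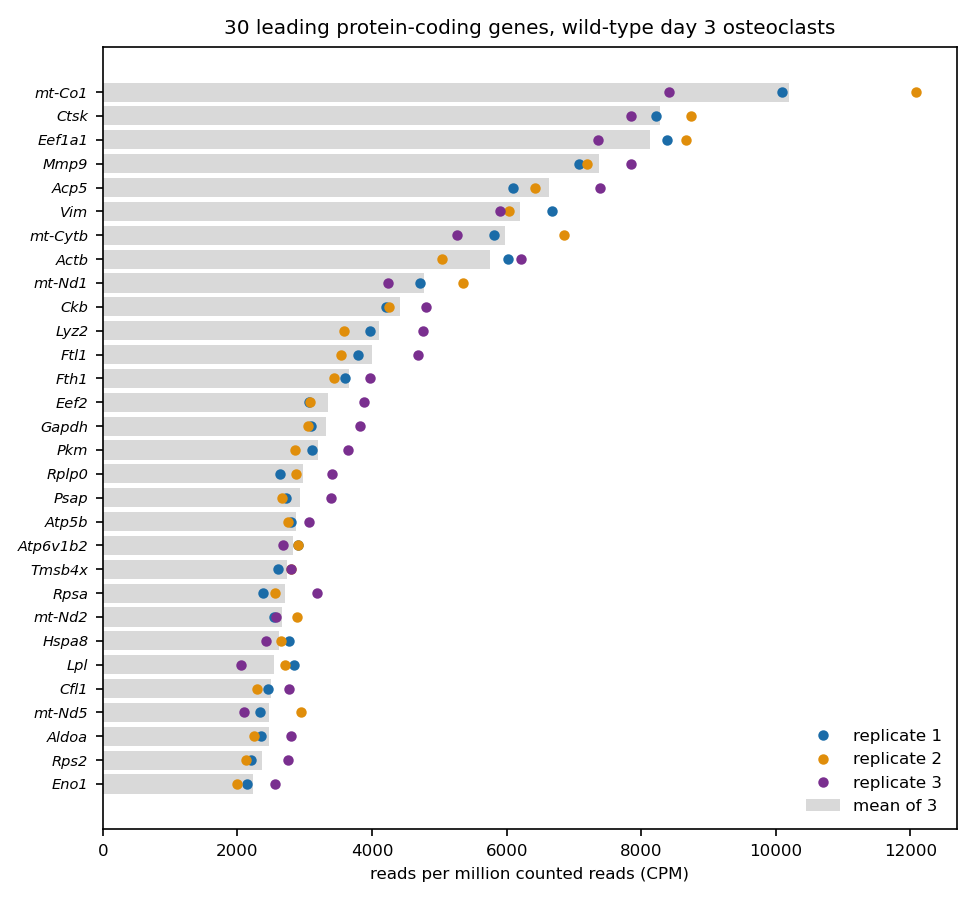
CPM of the 30 protein-coding genes with the highest mean, with the mean as a grey bar and each library as a point. The libraries of a gene lie close to each other against the differences between genes at the top and the foot of the plot. Replicate 3 is the highest or the lowest point for nearly all of these genes. Examples are Mmp9, Acp5, Ckb, Gapdh, Pkm, Aldoa, Eno1, Rplp0, Rpsa and Rps2, where it is highest. It is lowest for example for Ctsk, Vim, Lpl, mt-Co1 (8415 CPM) and Eef1a1 (7355 CPM).

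CPM favours long genes, so levels of different genes were compared as reads per kilobase of merged exon, scaled to the same total in every library as CPM (called TPM here). On that scale Ctsk, with 15102 ± 1105 TPM, came second to mt-Co1 among protein-coding genes and was above every other nuclear gene. Acp5 followed at rank 7 with 8999 ± 632 TPM, Mmp9 at rank 13 with 5741 ± 162 TPM and Ckb at rank 19 with 4207 ± 198 TPM. The order of Ctsk, Acp5, Mmp9 and Ckb was the same in each library. Between Eef1a1 (9016 ± 986 TPM) and Acp5 the difference was smaller than the SD of either. The other genes among the first 20 were mt-Cytb, mt-Nd1, mt-Nd6, mt-Nd2 and mt-Nd4, the ribosomal protein genes Rplp1, Rplp0, Rpl36 and Rps15, and Lyz2, Ftl1, Actb, Tmsb4x and Sh3bgrl3. Several leading genes by CPM or per length have copies whose reads could be exchanged with theirs. The share of 50-base stretches also found in other genes was 57.9% for Eef1a1, 74.8% for Ftl1 and 60.0% for Rplp1. It was 81.1% for Rpl36, 51.1% for mt-Co1, 41.8% for Rplp0 and 31.5% for Rps15. Beyond the first 20 per length it was 72.2% for Eno1 and 71.3% for Rps2. The gene mt-Nd4 also shares stretches, as given below. The share was 0% for Ctsk, Mmp9 and Acp5 and 7.96% for Ckb. The levels of the former genes are uncertain for that reason. Of the 100 leading genes by CPM 62 stayed among the 100 leading per length.

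The bone-degrading enzymes formed a steep series. Of the 17 genes of the protease and TRAP list 13 passed 100 CPM, and the list took 3.04 ± 0.136% of the reads. Per length, the next after Ctsk, Acp5 and Mmp9 were the lysosomal cathepsins Z, D, B and S. Ctsz stood at 2048 ± 208 TPM, Ctsd at 1482 ± 186 TPM, Ctsb at 976 ± 82.0 TPM and Ctss at 870.4 ± 36.4 TPM. Ctsz was thus the second cathepsin, far below the 15102 ± 1105 TPM of Ctsk. Cathepsin L (Ctsl) was at 321 ± 36.7 TPM and legumain (Lgmn), an asparagine-specific protease, at 244 ± 31.9 TPM. Mmp14, a membrane-bound metalloproteinase, was at 525, 507 and 552 CPM. The secreted Mmp12, an elastase of macrophages, was far lower at 23.6, 19.8 and 20.5 CPM. Mmp13, a collagenase, and Mmp2, a gelatinase, were under 1 CPM in the mean, with 18, 24 and 48 reads for Mmp13 and 21, 26 and 40 reads for Mmp2 in replicates 1, 2 and 3. Mmp9 was thus the 1 gelatinase of the list at a high level.

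The inhibitors of these enzymes were uneven. Cystatin C (Cst3), a secreted inhibitor of cysteine cathepsins, stood at 1378, 1520.0 and 1775 CPM and cystatin B (Cstb), its cytosolic relative, at 802, 873 and 932 CPM. Per length they reached 3386 ± 331 and 3972 ± 179 TPM, the highest levels of the list and above every cathepsin but Ctsk. The tissue inhibitors of metalloproteinases were lower. Timp2 stood at 142, 144 and 180.3 CPM, while Timp3 had 1.67 ± 0.382 CPM and Timp1 0.958 ± 0.324 CPM. Reck, Timp4 and A2m were under 1 CPM, and A2m had no read.

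The acid secretion machinery was present in nearly full set. Of 25 genes 24 reached 10 CPM and 22 reached 100 CPM, for 1.51 ± 0.0729% of the reads. The B subunit of the pump's head, Atp6v1b2, had the highest level per length, 1471 ± 111 TPM, and stood at 2903, 2902 and 2671 CPM. Tcirg1, the a3 subunit that places the pump at the ruffled border, stood at 1321, 1399.9 and 1548 CPM. Its relatives Atp6v0a2 and Atp6v0a1 were at 52.1 ± 2.72 and 37.3 ± 8.56 CPM. The B subunit had a second form at the floor. The kidney form Atp6v1b1 had 2, 0 and 0 reads, against 74677, 87233 and 93874 for Atp6v1b2. For the d subunit, Atp6v0d2 stood at 1227, 1256 and 853 CPM and the widely used Atp6v0d1 at 216, 210.0 and 240.5 CPM, which is 1134 ± 255 against 341 ± 17.0 TPM. Clcn7, the chloride and proton exchanger, was at 431, 413 and 445 CPM and its partner Ostm1 at 137, 146 and 94.0 CPM. Carbonic anhydrase 2 (Car2), which supplies the protons, was at 158, 177 and 124 CPM, and Slc4a2, which exports the bicarbonate left behind, at 379, 363 and 405 CPM. Snx10 and Plekhm1, needed for vesicle traffic in osteoclasts, were at 843 ± 174 and 168 ± 3.66 CPM.

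Cell fusion genes were all detected, with 10 of 12 above 100 CPM. Dcstamp, a membrane protein needed for fusion, was at 431, 430.0 and 328 CPM, lowest in replicate 3. Ocstamp, its partner in fusion, was at 403, 365 and 407 CPM. Per length, Sirpa, a receptor of Cd47, came after Atp6v0d2 with 541 ± 56.5 TPM, and Cd47 itself was at 62.5 ± 2.66 TPM. Of the tetraspanins Cd9 was at 464 ± 14.7 TPM, and Cd81 and Tspan7 were at 40.2 ± 7.72 and 14.6 ± 0.687 TPM. Cd109 was among the genes that differed most between libraries, at 223, 176 and 124 CPM, with replicate 1 highest and replicate 3 lowest.

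For attachment, all 21 genes of the adhesion and podosome list passed 10 CPM and 17 passed 100 CPM. The integrin of osteoclasts is the pair of Itgav and Itgb3. Itgb3 was at 432, 386 and 379.8 CPM and Itgav at 417, 359 and 229 CPM, the latter lowest in replicate 3. The β2 chain of leukocytes, Itgb2, was at 529 ± 40.1 CPM and the β1 chain, Itgb1, at 499 ± 87.9 CPM. Gelsolin (Gsn), which severs actin in podosomes, had the highest level per length, 1014 ± 91.4 TPM, and stood at 1110.2, 1062 and 1314 CPM. The kinase Src, without which mouse osteoclasts form but do not resorb, was at 274, 287 and 297 CPM, and Ptk2b (PYK2) at 145 ± 18.4 CPM. Its relative Ptk2 (FAK) was at 12.6 ± 1.78 CPM, which is 2.95 ± 0.505 TPM against 53.8 ± 5.62 TPM for Ptk2b. Rac2, the GTPase of blood cells, was at 741 ± 51 TPM and Rac1, with 55.0% of its stretches in an overlapping gene, at 243 ± 6.93 TPM. In the cytoskeleton list Tmsb4x, Cfl1, Pfn1 and Actg1, which regulate or build actin filaments, stood between 2047 and 2729 CPM in the mean. Actg1, the lowest of these, shares 55.9% of its stretches with other genes and is uncertain. Per length Actb reached 5927 ± 627 TPM, and Acta2, the actin of smooth muscle, 3.77 ± 1.79 TPM. Among tubulins Tubb5 and Tubb6 were at 806 ± 77.0 and 716 ± 95.8 TPM, Tuba1b, uncertain with 82.2% of its stretches shared, was at 1089 ± 107 TPM, and the neuronal Tubb3 was at 2.19 ± 0.186 TPM.

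The receptor of RANKL, Tnfrsf11a (RANK), stood at 263, 266 and 217 CPM and the M-CSF receptor Csf1r at 1396, 1376 and 1657 CPM. Per length Csf1r was the higher, at 704 ± 55.5 against 115 ± 15.6 TPM. The ligand Tnfsf11 had 1, 0 and 0 reads, besides the recombinant protein of the medium. A pair of adaptors carries the costimulatory signal. Tyrobp (DAP12) was at 811, 932 and 1115 CPM and Fcer1g at 297, 343 and 403 CPM. Tyrobp had the highest level per length of the signalling list, 3928 ± 509.9 TPM. Of the receptors that pair with them, Oscar was at 279, 268 and 314 CPM and Trem2 at 127, 119 and 188 CPM, with replicate 3 highest. Siglec15 was at 46.6 ± 5.25 CPM. Pirb, an inhibitory receptor that shares 37.3% of its 50-base stretches with other genes and is uncertain for that reason, was at 146 ± 8.24 CPM. The kinase Syk was at 232 ± 11.8 CPM, Btk at 132 ± 20.0 CPM, Tec at 44.7 ± 6.51 CPM and the phospholipase Plcg2, on which they act, at 155 ± 14.3 CPM. Traf6, the ubiquitin ligase that binds RANK, was at 62.5, 64.2 and 42.2 CPM.

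Nfatc1, the master transcription factor of osteoclasts, stood at 484, 471 and 495 CPM and varied little between libraries. Per length, the highest of the 28 transcription factors was Jdp2, a partner of AP-1 factors that mouse osteoclasts need, at 1195 ± 29.2 TPM. Its CPM hardly differed between libraries (926, 928 and 937). Against genes of like GC content and exon length, as described below, the replicate 3 ratio of Jdp2 was 0.812. Spi1 (PU.1), the factor of myeloid cells, followed at 872 ± 62.7 TPM and stood at 813, 798 and 950.2 CPM. Among AP-1 genes Junb (401 ± 45.4 TPM), Fos (238 ± 8.07 TPM) and Fosl2 (168 ± 11.4 TPM) were the highest per length. Fosl1, which overlaps another gene over 58.9% of its stretches and is uncertain for that reason, was at 3.61 ± 1.52 TPM, and Fosb had 3, 3 and 0 reads. Of the NF-κB genes Nfkb2 was at 141 ± 11.8 TPM, Rela at 68.1 ± 7.68 TPM, Relb at 43.6 ± 5.43 TPM and Nfkb1 at 38.1 ± 0.698 TPM. Of the MiT family Mitf was at 118, 104 and 65.9 CPM, lowest in replicate 3. Per length it stood at 43.0 ± 13.3 TPM, beside Tfec, Tfeb and Tfe3 at 29.6 ± 5.15, 24.2 ± 3.33 and 23.0 ± 2.89 TPM. Ppargc1b, which promotes mitochondrial growth in osteoclasts, was at 36.0 ± 2.08 CPM.

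Genes that hold osteoclast formation back were lower as a list than the transcription factors, with a median of 21.2 TPM against 59.9 TPM. The median of all genes at 1 CPM or more was 16.5 TPM. Nfkbia, the inhibitor of NF-κB, stood first at 430.2, 433 and 480.1 CPM. Rbpj was at 118 ± 14.8 CPM, Irf8 at 35.1, 37.5 and 58.3 CPM and Bcl6 at 20.9 ± 2.63 CPM. Irf8 and Id3 were both highest in replicate 3. Prdm1 (Blimp1), which represses Irf8 and Bcl6 in osteoclasts, stood at 114, 109 and 90.3 CPM.

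**Figure D2:**
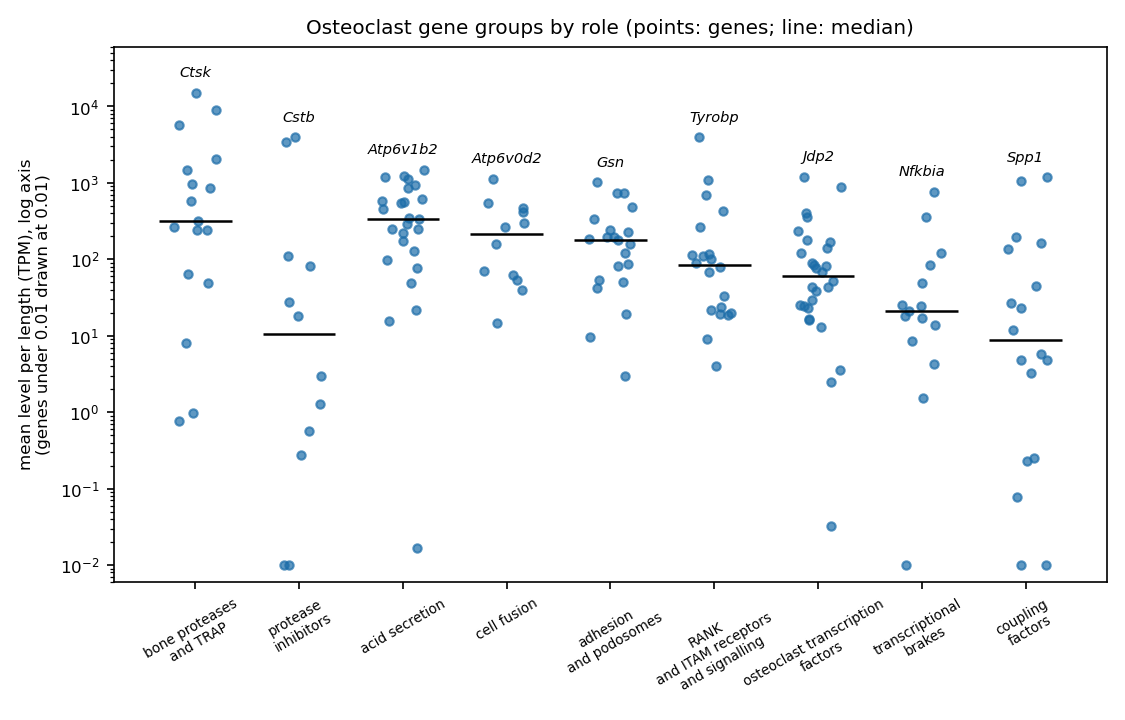
Mean TPM of each gene (points, log axis) in 9 gene lists ordered by role, with the median of each list as a line and the highest gene named. The medians are 321 TPM for proteases and TRAP, 341 TPM for acid secretion and 213 TPM for cell fusion, and 8.83 TPM for coupling factors, most of which lie low while Ccl9 and Spp1 lie above 1000 TPM.

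Factors by which osteoclasts act on osteoblasts were of very unequal level. Ccl9, a chemokine abundant in mouse osteoclasts, was at 1238, 1203 and 1080.2 CPM, the matrix protein Spp1 (osteopontin) at 778, 708 and 627 CPM and Sema4d, which restrains osteoblasts, at 542, 536 and 579.7 CPM. Tgfb1 and Pdgfb were at 296 ± 40.4 and 204 ± 13.8 CPM. Sphk1, which makes sphingosine 1-phosphate, was at 20.5 ± 2.60 CPM, Cthrc1 at 15.3 ± 1.18 CPM and Lif at 9.19 ± 1.08 CPM. Wnt10b, Ctf1, Bmp6 and Slit3 were under 1 CPM, with 7, 4 and 16 reads for Wnt10b and 0, 0 and 0 for Slit3. Of 18 such genes 13 reached 1 CPM and 5 reached 100 CPM.

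Of 15 genes linked to osteopetrosis or bone sclerosis 14 were above 10 CPM and 11 above 100 CPM. Per length they were led by Ctsk, Tcirg1 (851 ± 42.6 TPM), Snx10 (251 ± 58.1 TPM), Clcn7 (224 ± 7.58 TPM), Fermt3 (198 ± 18.4 TPM) and Itgb3 (187 ± 18.8 TPM). The exception was Tnfsf11, the ligand made by other cells.

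Of 20 hormone receptor genes none reached 100 CPM in the mean. The calcitonin receptor Calcr, a late osteoclast marker, was the highest at 111, 108 and 80.1 CPM, or 70.6 ± 13.9 TPM per length. The retinoic acid receptors Rarg and Rara, at 22.9 ± 3.69 and 18.5 ± 2.39 TPM, and the glucocorticoid receptor Nr3c1, at 21.1 ± 5.08 TPM, were next. The estrogen receptor Esr1 was at 1.14 ± 0.386 CPM with 18, 43 and 45 reads, and Esr2 and Fshr had no read in any of the 3 libraries. The vitamin D receptor Vdr was at 1.30 ± 0.585 CPM and the parathyroid hormone receptor Pth1r at 0.170 ± 0.0816 CPM. All 22 cytokine receptor genes reached 1 CPM. Per length the highest after Csf1r were the alpha chain of the GM-CSF receptor Csf2ra (225 ± 18.8 TPM), the TNF receptor Tnfrsf1a (144 ± 16.8 TPM) and the interferon gamma receptor chains Ifngr2 (133 ± 8.24 TPM) and Ifngr1 (117 ± 10.4 TPM), the last close to Tnfrsf11a. Il1r1, the interleukin 1 receptor, was the lowest at 0.514 ± 0.130 TPM, with 38, 33 and 34 reads.

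Energy metabolism took a large share of the transcriptome. Nuclear respiratory chain genes took 2.63 ± 0.155% of the reads, mitochondrially encoded ones 3.00 ± 0.426% and glycolysis genes 1.63 ± 0.173%. Of 81 nuclear respiratory genes 71 passed 100 CPM. Atp5b and Atp5a1, the β and α subunits of ATP synthase, stood at 2799, 2753 and 3056 CPM and at 1816, 1831 and 2027 CPM. Per length the cytochrome oxidase subunits Cox6a1 (2749 ± 278 TPM) and Cox8a (2580.0 ± 256 TPM) were higher than Atp5b (1867 ± 64.3 TPM). Of 20 tricarboxylic acid cycle genes 18 passed 100 CPM and the other 2, Sucla2 and Suclg2, were at 98.6 ± 17.1 and 66.1 ± 8.82 CPM. Sdhd (922 ± 41.2 TPM), Mdh2 (733 ± 19.7 TPM) and Sdhb (561 ± 36.3 TPM) were the highest of them per length. Glycolysis was led by Aldoa (2328 ± 221 TPM), Gapdh (2212 ± 225 TPM), Pkm (1764 ± 181 TPM) and Eno1 (1141 ± 122 TPM), each higher in replicate 3 than in the other 2 libraries. Lactate dehydrogenase A (Ldha) was at 1077 ± 77.9 TPM and Ldhb at 281 ± 8.32 TPM. Of the hexokinases Hk1 (68.8 ± 4.38 TPM) and Hk3 (85.2 ± 12.3 TPM) stood above Hk2 (17.6 ± 2.38 TPM). The glucose transporter Slc2a1 was at 55.9 ± 5.82 TPM and Slc2a3 at 3.73 ± 0.578 TPM. The lactate transporters Slc16a3 and Slc16a1 were at 48.1 ± 5.72 and 32.5 ± 5.61 TPM.

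Creatine handling was concentrated on one enzyme. Ckb, which regenerates ATP from phosphocreatine, stood at 4207 ± 198 TPM per length and the creatine transporter Slc6a8 at 153 ± 5.31 TPM. Slc6a8 varied little, at 289, 289 and 286 CPM. The mitochondrial creatine kinase Ckmt1 was at 28.0, 30.1 and 30.1 CPM, and the muscle forms Ckm and Ckmt2 were at the floor, with 5, 5 and 11 reads for Ckm and 0, 1 and 0 for Ckmt2. Gatm and Gamt, which make creatine, were at 13.8 ± 0.582 and 23.6 ± 4.63 CPM.

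The mitochondrial genes were counted very unevenly for genes of 1 genome that is transcribed as long precursors. Of 13 genes 7 were between 1490.5 and 10196 CPM in the mean. The other 6 were far lower. For example mt-Co2 was at 48.8, 155 and 130.2 CPM, mt-Atp6 at 35.4, 180.3 and 60.0 CPM and mt-Co3 at 28.8, 80.8 and 65.0 CPM, and mt-Nd3, mt-Nd4l and mt-Atp8 were under 10 CPM in the mean. In the GENCODE M21 transcripts, 100% of the 50-base stretches of mt-Co2, 99.5% of mt-Atp6, 99.9% of mt-Co3, 98.0% of mt-Nd3 and 98.8% of mt-Nd4l also occur in pseudogene transcripts of the nuclear genome. The shared part was 51.1% for mt-Co1, 62.2% for mt-Nd4, 0% for mt-Cytb and 0% for mt-Nd1. The sources used here do not give how reads that match several places were counted. Its part in the low values was not tested, and the levels of these 5 genes are uncertain. mt-Atp8, at 1.72 ± 0.798 CPM, shares no such stretch. mt-Atp6, mt-Co2 and mt-Co3 were also the genes lowest in replicate 1 and highest in replicate 2 among genes at 20 CPM or more.

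Ribosomal protein genes took 8.11 ± 0.699% of the reads, the largest share of any list, and 77 of 85 passed 100 CPM. Per length Rplp1 (11419 ± 1308 TPM), Rplp0 (4925 ± 507 TPM), Rpl36 (4495 ± 479 TPM) and Rps15 (4429 ± 552 TPM) were the highest. Rpl24, Rps10 and Rpl13a were low at 1.67 ± 0.329, 5.04 ± 0.374 and 74.1 ± 9.14 CPM. These are genes whose exons overlap another annotated gene: 69.4%, 55.8% and 57.4% of their 50-base stretches lie in a transcript of a gene at the same place. Rpl35, with 59.0%, was at 706 ± 65.8 CPM. Stretches also found in genes elsewhere made up 77.7% for Rpl24, 44.9% for Rps10, 22% for Rpl13a and 40.1% for Rpl35. The part of overlap or of copies in these counts was not tested. Pseudogene copies are common in this family, so single members are uncertain.

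Lysosomal genes were all above 10 CPM, with 21 of 26 above 100 CPM. Psap, the precursor of saposins, stood at 2716, 2664 and 3385 CPM, highest in replicate 3. Per length it led with 2930.2 ± 321 TPM, followed by the galectin Lgals3 (2666 ± 299.5 TPM), the macrosialin Cd68 (2285 ± 118 TPM) and the hexosaminidase Hexa (1606 ± 120.4 TPM). Iron genes were led by the ferritins and by the transferrin receptor Tfrc, which brings iron in, at 873, 828 and 487 CPM. The iron exporter Slc40a1 (ferroportin) was at 8.55, 8.82 and 6.57 CPM. Tfrc per length was 327 ± 102 TPM and Slc40a1 2.45 ± 0.435 TPM. Of 20 antioxidant genes 15 passed 100 CPM. The glutathione peroxidase Gpx1 (929, 982 and 1300.3 CPM) and thioredoxin Txn1 (865, 811 and 839.6 CPM) led, and the cystine carrier Slc7a11 was lowest at 2.88, 2.03 and 1.85 CPM. Among lipid genes lipoprotein lipase (Lpl) stood at 2843, 2708 and 2057 CPM, lowest in replicate 3, and Apoe at 678, 749 and 889.5 CPM. The fatty acid binding protein Fabp5 was at 62.8 ± 3.58 TPM and Fabp4 at 0.471 ± 0.211 TPM.

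Acod1 itself was at the edge of detection in these untreated cells, with 24, 27 and 55 reads, or 0.933, 0.898 and 1.57 CPM. Its rank by mean CPM was 11780. Clybl, which takes part in the breakdown of itaconate, was at 44.0, 42.7 and 44.1 CPM. Aco1, the cytosolic aconitase, was at 107, 108 and 106 CPM, and neither differed much between libraries. Nfe2l2 (NRF2), the antioxidant transcription factor that itaconate derivatives activate, was at 121, 117 and 90.9 CPM, and its partner Keap1 at 49.6, 44.9 and 57.1 CPM. Slc13a5, a citrate carrier, had no read, and the succinate receptor Sucnr1 was at 3.04 ± 0.771 CPM.

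Inflammatory genes were low. Of 14 cytokine genes 7 reached 1 CPM. Tgfb1 was the highest at 279, 268 and 343 CPM, and Il1rn, the interleukin 1 receptor antagonist, was at 45.6, 44.8 and 34.0 CPM. Tnf was at 11.3, 8.55 and 10.0 CPM. Il1b had 17, 21 and 36 reads, Il6 0, 1 and 2, Nos2 0, 0 and 2 and Ifnb1 none. Interferon-stimulated genes were present at a low level: 23 of 25 reached 1 CPM, 9 reached 10 CPM and none reached 100 CPM. Bst2 (tetherin) was at 65.5, 69.6 and 85.6 CPM, Ifi27l2a at 31.6, 35.5 and 49.1 CPM and Irf7 at 9.33, 11.8 and 18.9 CPM, each highest in replicate 3. The summed level of the 25 genes was 261, 296 and 354 CPM. Among 20 chemokine genes only Ccl9 passed 100 CPM, and per length Pf4 (119 ± 27.9 TPM), Ccl2 (47.5 ± 13.2 TPM) and Ccl6 (37.5 ± 6.86 TPM) came next. Ccl8 had no read. Toll-like receptors were led by Tlr2 (35.5 ± 3.34 TPM) and Tlr13 (22.7 ± 2.93 TPM), and the adaptor Myd88 was at 77.9 ± 12.8 TPM.

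Cell cycle genes were transcribed throughout. All 18 S phase genes and all 20 G2 and M phase genes passed 10 CPM. Top2a was at 352, 336 and 259 CPM, Mki67 at 305, 287 and 218 CPM and Pcna at 293, 278 and 251 CPM. Which cells of the culture carried these transcripts was not measured. Of the D cyclins Ccnd1 was at 74.5 ± 8.56 TPM, Ccnd3 at 22.5 ± 3.63 TPM and Ccnd2 at 2.55 ± 0.274 TPM. The inhibitor Cdkn1a (p21) was at 117, 122 and 141 CPM, and Cdkn2a had 11, 15 and 22 reads. Among genes of cell death the survival gene Mcl1 was the highest at 633, 698 and 597 CPM, or 519 ± 49.8 TPM per length, while the survival genes Bcl2l1 and Bcl2 were at 10.7 ± 1.53 and 2.17 ± 0.541 TPM. Bax, Bak1 and the caspase Casp8, which promote death, were at 215 ± 23.1, 159 ± 10.6 and 133 ± 27.3 TPM. Fasl had no read. Heat shock genes were of unequal level. The constitutive Hspa8 was at 1679 ± 162 TPM, Hsp90aa1 at 481 ± 132 TPM, Dnajb1 at 56.5 ± 3.42 TPM and Hsph1 at 28.2 ± 6.70 TPM. Hspa8 and Hsp90aa1, with 49% and 58.5% of their stretches also in other genes, are uncertain. Hspa1b, which shares 62.3% of its stretches with Hspa1a and is uncertain, was at 6.90 ± 1.57 TPM. The immediate early gene Egr1 was at 0.939 ± 0.0584 TPM.

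Markers of other cell types differed in level by lineage. All 12 macrophage markers were detected, with a summed level of 6026, 5602 and 7137 CPM. They were led by Lyz2 and Csf1r, with Adgre1 (F4/80) at 220.2, 229.8 and 234 CPM, and Mertk the lowest at 1.54 ± 0.119 TPM. All 7 monocyte markers and all 10 neutrophil markers reached 1 CPM, summing to 509.6, 489 and 539 CPM and to 829.6, 661 and 978 CPM. The monocyte chemokine receptor Ccr2 was at 136, 142 and 135 CPM and Ly6c2 at 84.1, 83.2 and 113 CPM. Of the neutrophil granule and cytosol genes S100a9 was at 182, 151 and 202 CPM, Ngp at 163, 117 and 186 CPM and Mpo (myeloperoxidase) at 126, 103 and 157 CPM. Lactoferrin (Ltf) was at 92.4, 60.1 and 96.0 CPM. Replicate 2 was the lowest for each of these genes. Ly6g, the surface marker of mature neutrophils, was at 0.933, 0.532 and 1.91 CPM. Of the dendritic cell list the class II genes Cd74 (272, 355 and 487 CPM), H2-Aa (64.3, 91.2 and 113 CPM) and H2-Ab1 (59.1, 81.2 and 117 CPM) were highest in replicate 3 and lowest in replicate 1. Itgax (CD11c), in the same list, was at 15.3, 18.0 and 17.5 CPM, and its other 7 genes were under 5 CPM. The B cell list summed to 54.8, 66.1 and 84.5 CPM and held Ighm at 38.1, 45.3 and 57.2 CPM, its other 7 genes lying under 10 CPM.

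Markers of other lineages summed to lower levels than the macrophage, monocyte, neutrophil and dendritic cell lists. The summed level was 4.66, 5.12 and 5.58 CPM for 10 T and NK cell genes, 11.7, 7.75 and 13.1 CPM for 7 erythroid genes, and 13.7, 8.18 and 11.2 CPM for 10 stroma and osteoblast genes. The mast cell and basophil list summed to 15.6, 11 and 13 CPM and the endothelial list to 18.2, 20.3 and 25.3 CPM, of which Vwf made up 11.3, 12.6 and 18.0 CPM. The megakaryocyte list was higher than these, with a sum of 65.1, 75.3 and 101 CPM and 5 of 6 genes at 1 CPM or more. Its integrin chain Itga2b was at 14.3, 14.9 and 23.1 CPM. The megakaryocyte chemokine Pf4 was at 25.5, 27.2 and 40.7 CPM and its relative Ppbp at 22.4, 29.8 and 32.3 CPM, both highest in replicate 3, while Gp1bb, which overlaps another gene over 92.8% of its stretches, had no read. In the T and NK cell list Trac, the constant part of a T cell receptor chain, was at 3.42, 3.59 and 3.24 CPM and Nkg7 at 1.05, 1.33 and 2.16 CPM, and the other 8 genes were under 1 CPM. Cd3e and Cd3g, defining chains of the T cell receptor complex, each had 1 read in replicate 3 and none in the others, and Gzma, Prf1 and Ncr1 had none. Bglap (osteocalcin), which shares 74.7% of its stretches with other genes, had 0, 1 and 1 reads and Cdh5, the endothelial cadherin, 3, 11 and 5.

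**Figure D3:**
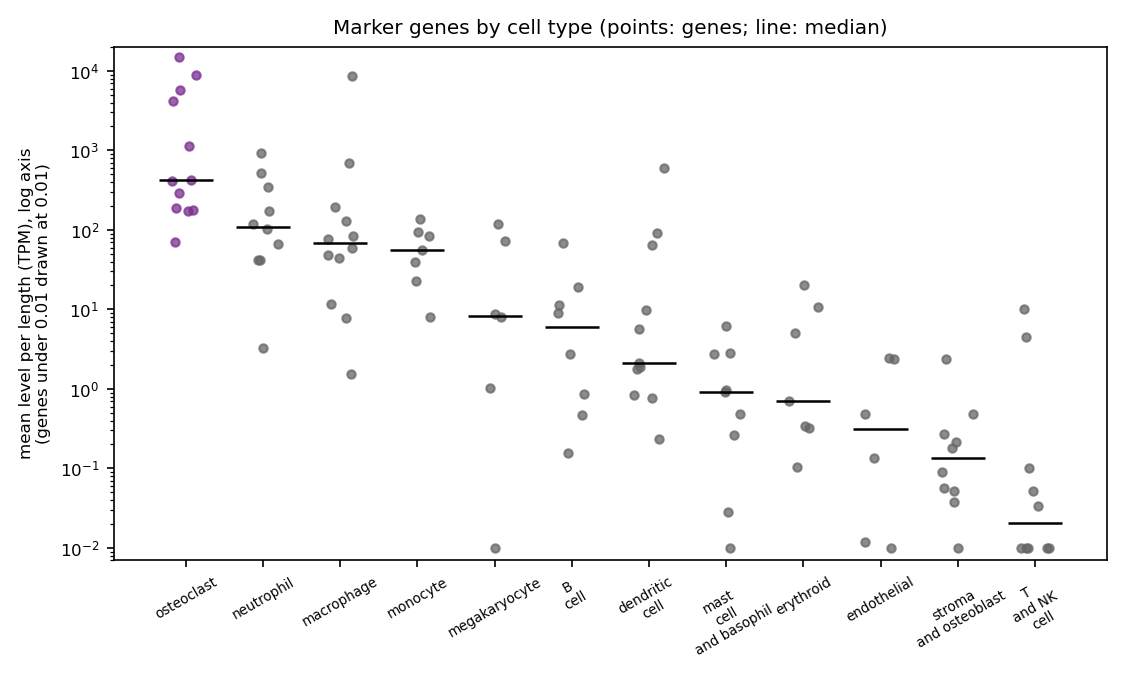
Mean TPM of the marker genes of 12 cell types (points, log axis, values under 0.01 drawn at 0.01), with each list's median as a line and the osteoclast list in purple. The osteoclast median is 420 TPM, those of the neutrophil, macrophage and monocyte lists are 110.3, 68.4 and 56.3 TPM, and those of the endothelial, stroma and T and NK cell lists are under 1 TPM.

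Noncoding RNA took little of the reads. By annotation class the highest was Ifi30 (821, 797 and 929 CPM), which the GENCODE release classes as a processed transcript although the symbol is that of a lysosomal thiol reductase. Neat1, the RNA of paraspeckles, was at 434, 363 and 318 CPM and Malat1 at 146, 144 and 86.9 CPM. Cct6a, whose symbol is that of a chaperonin subunit and which has the same class as Ifi30, was at 409, 386 and 289.6 CPM. AI506816, Gm10076, 2900097C17Rik, 1810058I24Rik and Brip1os were between 117 and 285 CPM in the mean. Of 79 genes listed for RNA without a poly(A) tail, mostly histones, 12 reached 1 CPM, beside 11959 of all 54532 gene IDs. Whether the RNA counted on each had a tail was not measured. Many of the 79 have near-identical copies or lie within other genes (Rn7s1 and Rn7s2 share all of their 50-base stretches), so their counts are uncertain. The library kit is named in the labels but the step that removes ribosomal RNA is not given in the sources used here.

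Xist, which coats the silenced X chromosome, had 0, 356 and 0 CPM, so that only replicate 2 held it. The 4 Y-linked genes Eif2s3y, Ddx3y, Kdm5d and Uty summed to 171, 0 and 100 CPM. Replicate 2 thus held Xist and no Y-linked read, and replicates 1 and 3 the reverse. By these genes the libraries were not all from mice of 1 sex, so an SD over them also spans sex. The 6 X-linked genes known to escape inactivation summed to 710, 842 and 521 CPM, highest in replicate 2.

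Reference genes used for normalisation were not equally steady. By plain CPM B2m (763, 771 and 758 CPM) and Ppia (1865, 1971 and 1920.4 CPM) differed least between libraries, 1.02-fold and 1.06-fold from lowest to highest. Sdha (819, 882 and 687 CPM), Ywhaz (511, 489 and 391 CPM) and Hprt (137, 122 and 111 CPM) were lowest in replicate 3, and Gapdh (3098, 3048 and 3817 CPM), Rplp0 (2626, 2875 and 3406 CPM) and Actb were highest there. Eef1a1, Pgk1 and Tbp were lowest in replicate 3, and Gusb and Polr2a highest. The largest ratio of replicate 3 to the mean of the other 2 libraries in this list was 1.24 for Gapdh and the smallest 0.782 for Ywhaz. Against genes of like GC content and exon length, a step described below, the ratio was 1.13 for Gapdh and 0.951 for Ywhaz. It moved from 0.989 to 1.18 for B2m and from 0.853 to 1.07 for Hprt, with Ppia at 1.04 and Sdha at 0.855. Which reference genes were steadiest thus depended on that step.

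The ratio of replicate 3 to the mean of replicates 1 and 2 followed the base composition of the genes. Among protein-coding genes at 10 CPM or more its median was 0.743 for 1072 genes whose longest transcript had under 42% G and C, 0.838 at 45 to 48%, 0.967 at 48 to 51%, 1.09 at 51 to 54% and 1.17 for 2221 genes at 54% or more. Replicate 3 was above the mean of replicates 1 and 2 for 5.22% of the genes under 42%. For those at 54% or more the share was 93.0%. Across 8529 genes, which share these libraries and their depth, Spearman's rho was 0.741 with GC content and -0.447 with exon length. The same coefficients for replicate 2 against replicate 1 were -0.00203 and -0.0153. Length carried part of its own: among genes at 48 to 51% the median ratio was 1.06 under 2000 bases and 0.900 at 5000 bases or more. What made the library differ was not tested, and its labels do not set it apart.

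**Figure D4:**
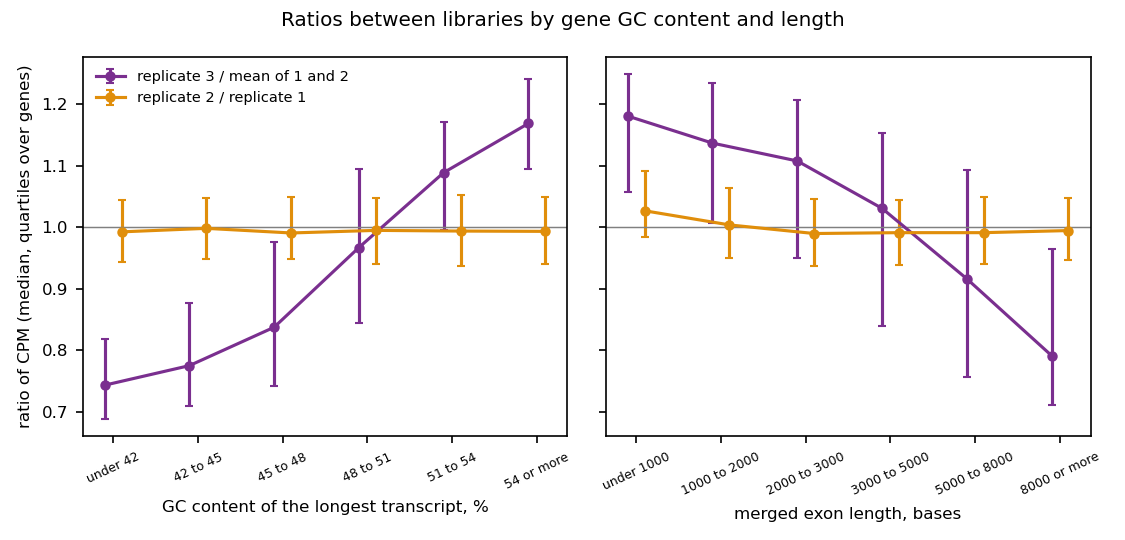
Ratio of CPM between libraries (median with quartiles over protein-coding genes at 10 CPM or more) in bins of GC content (left) and merged exon length (right), for replicate 3 against the mean of replicates 1 and 2 and for replicate 2 against replicate 1. The first rises with GC content from 0.743 to 1.17 and falls with length from 1.18 to 0.792, and the second stays between 0.990 and 1.03.

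Each gene's ratio was therefore also divided by the median ratio of genes of like GC content and then of like exon length, a step added after the pattern was seen. The quartiles of the ratio at 10 CPM or more narrowed from 0.792 and 1.14 to 0.922 and 1.09. Over all 11947 genes at 1 CPM or more, the ratio was above 1 for 48.2% before and 49.9% after the step. After it, the ratio was above 1 for 11 of 12 macrophage, 7 of 7 monocyte and 10 of 10 neutrophil markers. The same held for 7 of 7 B cell and 5 of 5 megakaryocyte markers. Of chemokine genes 11 of 11 were above 1, and of interferon-stimulated genes 20 of 23. These counts cover genes at 1 CPM or more. The median ratio was 1.25 for the macrophage, 1.32 for the monocyte, 1.19 for the neutrophil and 1.33 for the B cell list. Of the osteoclast markers the ratio was above 1 for 1 of 12, with a median of 0.918. Of the osteopetrosis genes it was above 1 for 2 of 14, with a median of 0.920. By plain CPM replicate 3 was the highest library for 3 and the lowest for 2 of the 7 monocyte markers. The step moved the monocyte list from 0.984 to 1.32 and the G2 and M phase list from 0.836 to 1.01, whose genes are poor in G and C.

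Single genes also stood apart by plain CPM. The complement genes C1qa (18.5, 15.4 and 33.1 CPM), C1qb (41.1, 40.2 and 74.9 CPM) and C1qc (26.2, 27.9 and 46.7 CPM), made by macrophages, were higher there than in the other 2 libraries, with ratios of 1.95, 1.84 and 1.73, or 1.47, 1.46 and 1.38 against genes of like GC content and length. Tmem176b, Tmem173 (STING), Neurl3, Id3 and Tnfaip8l2 were also higher, with ratios of 1.67 to 1.89. Nyap2 (47.5, 38.5 and 20.8 CPM), the eotaxin receptor Ccr3 (27.9, 23.5 and 14.2 CPM), Usp31, Tmtc3, Rasa2 and Mdn1 were lower, with ratios of 0.483 to 0.557, or 0.674 to 0.808 after the step. Of these 6 genes 4 have under 42% G and C. mt-Atp6, whose count is uncertain as said above, was also among the lowest. In replicate 2 the lowest genes against the other 2 libraries were C1qa, Camp, Ltf, Stab1, Ngp, Hp, C5ar1 and C1qb. Such a ratio also moves with replicate 3: C1qa and C1qb are among the highest of replicate 3, and C1qb in replicate 2, at 40.2 CPM, was close to the 41.1 CPM of replicate 1. In replicate 1 the lowest after the mitochondrial genes were Tbc1d16, Mxd4 and the class II genes H2-Ab1, H2-Eb1 and H2-Aa, and the highest were Nyap2, Cd109, Ccr3, Slc31a2, Cd200, Calcrl, Itgav and Haus6. Of those Nyap2 and Ccr3 are also among the lowest of replicate 3. The highest in replicate 2 after the mitochondrial genes were Rasal2, Pdpr, Lgalsl, Arap2 and Zbtb38. The part of the mix of cells in these differences was not tested.

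**Figure D5:**
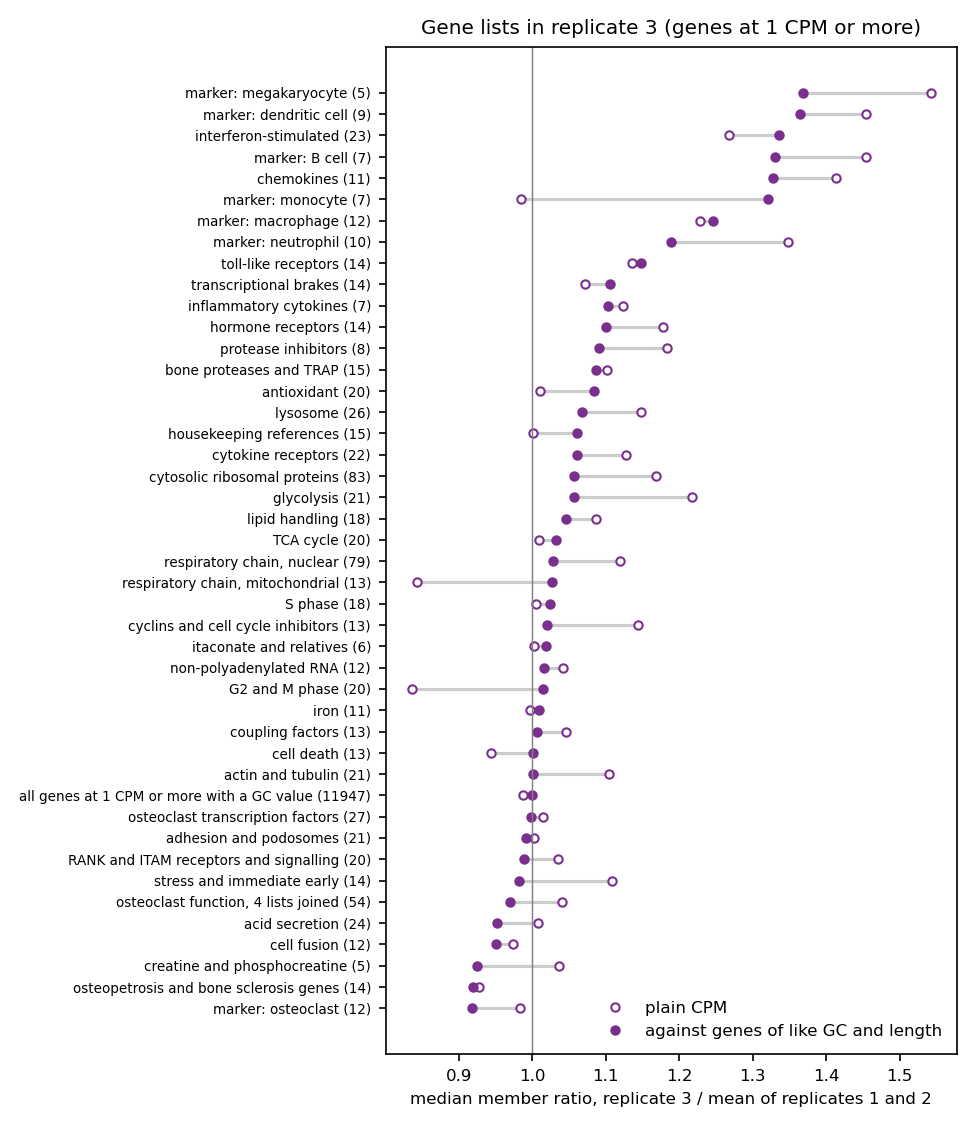
Median ratio of replicate 3 to the mean of replicates 1 and 2 for each gene list with at least 5 genes at 1 CPM or more (number in brackets, lists of sex-linked genes left out), by plain CPM (open) and against genes of like GC content and exon length (filled). Marker lists of other blood cells and the chemokine and interferon lists lie right of 1 after the step, from 1.19 to 1.37, and the osteoclast marker list lies furthest left at 0.918. The protease and TRAP list lies at 1.09.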

How the data were processed

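Per the labels' protocols, total RNA of cultured osteoclasts was purified with RNeasy columns, and libraries were made from 1 µg with the NEBNext Ultra RNA kit. The authors deposited a table of raw gene counts. Per the submitters' processing notes it was made with fastp, STAR and HTSeq (0.6.1) on mm10. The sources used here give neither the annotation release, the strand setting nor the versions of fastp and STAR; genes that overlap on opposite strands therefore cannot be told apart. The members, gene lists and named genes were chosen with earlier results of these data known. Counts of the 3 wild-type, untreated libraries were divided by their plain totals (CPM), and by merged exon length in GENCODE M21 (TPM, 37 gene IDs had no entry and were left out of TPM). Dispersion was estimated with edgeR 4.0.16 and limma 3.58.1 (R 4.3.3), the rest with Python 3.11.15, pandas 2.3.3 and numpy 2.4.6. No group was compared and no hypothesis test was made. The named genes are the 30 leading by CPM, the 20 leading per length, 10 noncoding genes, members of the lists and the 8 genes each way that stood furthest apart in each library at 20 CPM or more; the members given values within a list were picked after their values were seen. The dispersion estimate and the adjustment for GC content and length were tested on simulated data. Shared 50-base stretches were searched in the longest transcript of each gene. The 3 totals lie between 25727540 and 35143629 reads, so 1 CPM is 25.7 to 35.1 reads. A few genes of the lists are not reported here.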

Additional observations from a re-analysis of the deposited data

How the results depend on the processing

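The osteoclast marker, protease and TRAP, acid secretion and cell fusion lists, 57 genes joined after seeing the data and called osteoclast function lists here, took 5.42 ± 0.0964% of the reads (SD, n = 3). Without replicate 1, 2 or 3 the common biological coefficient of variation ranged from 0.0667 (without replicate 3) to 0.171. Per length in place of CPM, the 100 leading genes took 36.3%, 251 genes made up 50%, the osteoclast function lists held 5.60%, 62 of the 100 leading genes were shared, and Acp5, Mmp9 and Ckb ranked 7, 13 and 19. Without the mitochondrial genes the leading 100 took 21.4% and the osteoclast function lists 5.60%. In replicate 3 alone Mmp9 ranked 2. Genes that differed 2-fold between replicates 1 and 2, 1 and 3 and 2 and 3 numbered 107, 196 and 129 at 1 CPM or more and 7, 4 and 3 at 50 CPM or more. Of 51 lists 30 were highest in replicate 3 by plain totals, 30 by TMM, 31 by DESeq2-type size factors and 30 against genes of like GC content and length, an alternative chosen after seeing the data. Among genes of 48 to 51% G and C, also chosen after seeing the data, the coefficient was 0.118. Under the other alternatives run, no value moved by more than the spread between replicates or, for counts, 1.5 times. No paired analysis was possible because 1 group was described. At 1 CPM a gene rests on 25.7 to 35.1 reads, and with 3 libraries the spread is known only roughly.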
